A study of Mus musculus with 4 samples.

Results

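The genes described here encode the translation initiation factors (eIF) and elongation factors (eEF) of the cytosol, with the enzymes that share these gene names. They were chosen by symbol, as every gene on the array whose name begins with Eif1 to Eif6 or with Eef1 or Eef2, leaving out the eIF2 kinases (Eif2ak), the eIF4E-binding proteins (Eif4ebp) and the eIF2 gamma subunit genes (Eif2s3). The rule used no measured value and found 56 of the 17305 genes with a named probe. All 56 were tested among 15524 genes, and each had a brightest probe that exceeded background clearly in red and green on all 4 arrays.

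The knockout extracts were total RNA of pancreas from Cyp11a1 knockout embryos of strain C57BL/6JNarl at stage E18.5 (embryonic day), and the wild-type extracts came from pancreas of the same strain and stage. Cyp11a1 encodes the mitochondrial enzyme that makes pregnenolone from cholesterol, with which steroid hormone synthesis begins. Each of 4 two-colour arrays held 1 knockout extract in red and 1 wild-type extract in green, so a dye effect on a gene cannot be told apart from genotype. The sources used here do not give how the allele was made or how many embryos an extract holds.

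Protein synthesis begins when eIF2 brings the initiator tRNA to the small ribosomal subunit, together with eIF1, eIF1A, eIF3 and eIF5. The cap-binding complex eIF4F, made of eIF4E, eIF4G and the helicase eIF4A, loads this complex on a messenger RNA. eEF1A then delivers each aminoacyl-tRNA, the eEF1B complex recharges eEF1A with GTP, and eEF2 moves the ribosome along. Acinar cells of the pancreas have a very high rate of protein synthesis, since they make the digestive enzymes. In mammals the messenger RNAs of eEF1A1, the eEF1B subunits, eEF2, several eIF3 subunits and eIF4B belong, like those of ribosomal proteins, to a class that begins with a terminal oligopyrimidine tract, through which mTOR controls their translation.

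Start regions from RefSeq (build GRCm38.p6, 20 bases before the annotated start to 30 from it on) are shown, because the tract lies at the start of the transcript. The genes shown are Eef2 and the 3 genes higher in knockout that hold a run of 8 or more pyrimidines in this window. The other higher genes with a start region hold no such run. Capitals mark each run of 8 or more pyrimidines, a length chosen after the sequences were seen.
Eif3f (chr7:108934395-108934444, plus strand): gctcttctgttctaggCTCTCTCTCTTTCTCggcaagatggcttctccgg
Eef1a1 (chr9:78481695-78481744, minus strand): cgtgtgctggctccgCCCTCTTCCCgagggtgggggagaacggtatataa
Eif3l (chr15:79075203-79075252, plus strand): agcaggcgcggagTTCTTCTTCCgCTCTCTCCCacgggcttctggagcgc
Eef2 (chr10:81176611-81176660, plus strand): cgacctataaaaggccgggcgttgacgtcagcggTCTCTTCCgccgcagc
A C at the annotated start followed by at least 4 pyrimidines, read in the direction of the transcript only, was found in 1 of the 8 matched genes that were higher (Eif3f), in 0 of 38 other matched members, and in 3.01% of all 27025 genes in the table. A run of 8 or more pyrimidines anywhere in the window was found in 3 of these 8 genes, in 9 of the 38 others and in 21.5% of all genes. The marked run of Eif3f, that of Eef1a1 and the first marked run of Eif3l begin before the annotated start, so they lie partly or wholly outside the annotated transcript. A match describes the letters in the annotated window and no more, and the annotated start need not be the one used in pancreas. The Eef1a1 window ends in tatataa, the letters of a TATA box, an element that lies before a start. The marked run of Eef1a1 comes before these letters, so it need not be part of the transcript.

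Median signals per array ran from 304 to 467 in knockout and from 163 to 224 in wild-type channels, with 78.2% to 85.1% of spots well above background and 0 saturated. Cyp11a1 gave log2 ratios of -0.19, -0.40, 0.013 and -0.072 on arrays 1 to 4, and no source used here says whether its probe lies in the deleted part (mean -0.16 ± 0.070, limma adjusted p = 0.164). Of 10 acinar markers 9 had a named probe, all clearly above background on every array in red and green, as were all 7 islet markers. Of these 9, 3 were higher and 3 lower in knockout (66.7%, against 14.6% of all genes past the threshold). Cel was at 0.66, Cpa1 at 0.62 and Rbpjl at 0.40, whereas Cpb1 was at -0.78, Cela1 at -0.69 and Pnlip at -0.20. Chga of the islet list was lower at -0.24 and Pdgfrb of the mesenchyme list higher at 0.33. Hepatocyte and red cell markers were measurable too and differed between arrays. The summed level of 9 hepatocyte markers ranged from 15042 to 41193 in knockout and from 3354 to 40095 in wild-type channels. Apob, the brightest of them (mean log2 intensity 14.8), and Ttr had no value on array 1. The sums of array 1 leave both out, so the range of the sums does not measure hepatocyte RNA alone. None of these 9 passed the test, 1 had an unadjusted p under 0.05, and Alb gave log2 ratios of 4.13, 2.70, -3.52 and 1.44 on arrays 1 to 4. The 5 red cell markers tested summed to 119582 to 180032 in knockout and 67019 to 160656 in wild-type channels. Of these, 0 were past the threshold and 0 had an unadjusted p under 0.05. The part of these cell types in the results below was not tested. Xist, expressed from the inactive X chromosome of females, gave -3.91, -0.28, -4.22 and 3.46, so the sexes of the paired extracts were not balanced over the arrays.

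Of the 56 translation factor genes, 13 were higher and 1 was lower in knockout pancreas (limma, Benjamini-Hochberg adjusted p under 0.05), and 42 did not pass. The shares among all genes tested were 9.45% higher and 5.11% lower, against 23.2% of the members higher. The members had a median log2 ratio (knockout over wild type) of 0.087, against 0.013 for all genes, and 39 members lay above 0 (69.6%, against 54.6% of all genes). All 14 genes past the threshold had 1 sign on all 4 arrays, as did 24.1% (above 0) and 15.4% (below 0) of all genes. The test of the same 4 ratios favours genes of 1 sign, so this adds no support to the calls. Changes were small: Eef1a1 rose 1.77-fold, and the next, Eif3h, 1.38-fold. In bulk pancreas RNA, a change in the share of cells of a type and a change in RNA per cell cannot be told apart.

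**Figure D1:**
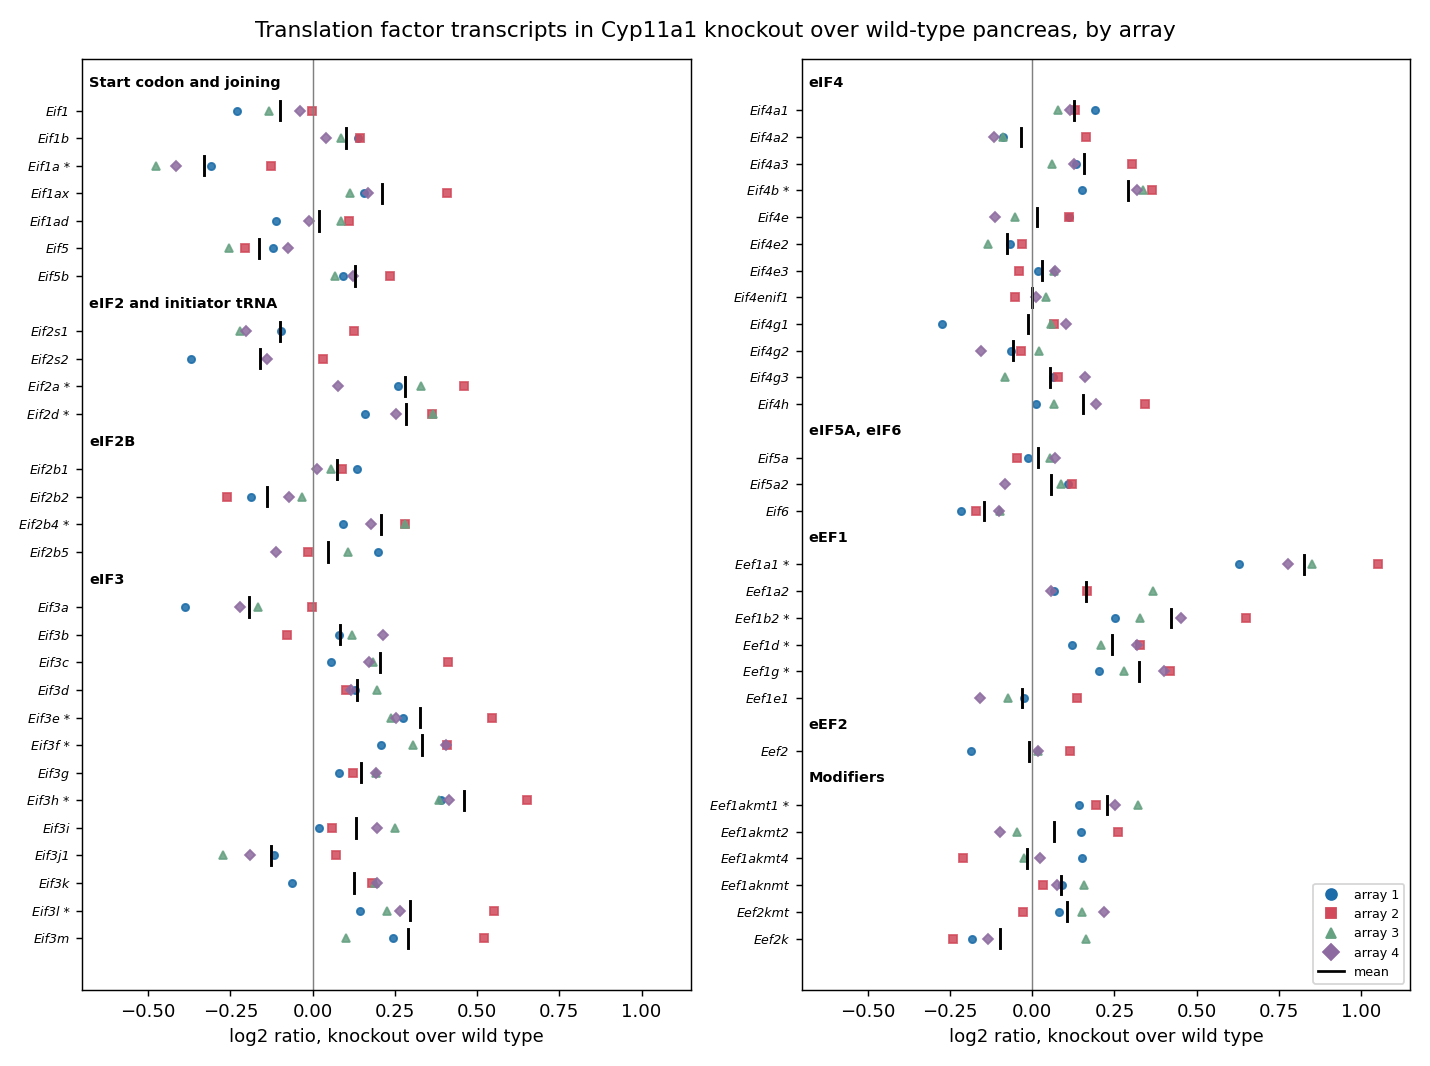
Log2 ratio of knockout over wild type for all 56 translation factor genes, grouped by role, with 1 symbol per array and a black bar at the mean. An asterisk marks the 14 genes past the threshold. Eef1a1 stands furthest to the right, at 0.63 to 1.05, and Eif1a furthest to the left with loess, though at 0.10 with median centring.

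Of 6 genes named for eEF1, 4 rose (66.7%, against 9.45% of all genes). Eef1a1, which encodes the main form of eEF1A, and all 3 genes of the eEF1B complex rose in knockout pancreas. Eef1a1 rose by 0.83 ± 0.069 on the log2 scale (SE, n = 4 arrays, limma adjusted p = 0.0019), with log2 ratios of 0.63, 1.05, 0.85 and 0.78 on arrays 1 to 4. Its normalised log2 intensity was 16.00, 16.54, 16.56 and 16.60 in knockout extracts, against 15.37, 15.49, 15.71 and 15.82 in wild-type extracts. Eef1a1 did not pass in a fit of single channels without pairing the extracts of an array (limma adjusted p = 0.371). Channels were not normalised between arrays there, so brightness differences between arrays entered the error, and 3 of all 15524 genes passed. The second probe of Eef1a1 gave 0.73 ± 0.060. Eef1a1 has many processed pseudogenes, so its probes may also bind other copies.

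Eef1b2, the beta subunit and one of the nucleotide exchange factors for eEF1A, gave log2 ratios of 0.25, 0.65, 0.33 and 0.45 (mean 0.42 ± 0.069, limma adjusted p = 0.0094). Eef1g, the gamma subunit that scaffolds the complex, gave 0.20, 0.42, 0.28 and 0.40 (mean 0.33 ± 0.053, limma adjusted p = 0.0090). Eef1d, the delta subunit, gave 0.12, 0.33, 0.21 and 0.32 (mean 0.24 ± 0.052, limma adjusted p = 0.022). Array 2 gave the highest and array 1 the lowest value of each of the 3 genes. Eef1d rested on 1 of its 3 probes, since the others gave 0.062 and -0.11, and it did not pass without replicate 2, 3 or 4 (limma adjusted p = 0.057 to 0.092).

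Eef1a2, the eEF1A form of muscle and neurons, gave 0.066, 0.17, 0.37 and 0.057 and did not pass (mean 0.16 ± 0.062, limma adjusted p = 0.119). The log2 ratio of Eef1a1 exceeded that of Eef1a2 on every array, by 0.56, 0.89, 0.48 and 0.72. An exact two-sided permutation test of this difference gave p = 0.125, the smallest value that 4 arrays allow, and 0.125 after adjustment over the 2 pairs of related genes compared.

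Eef2, the translocation factor, showed no such rise on its brightest probe, which gave -0.19, 0.12, 0.016 and 0.018 (mean -0.0091 ± 0.058, limma adjusted p = 0.935, 95% interval -0.14 to 0.12). Its probes disagreed. The other 2 gave 0.29 ± 0.055 and 0.19 ± 0.054, and the first of these passed in a fit of all probes (limma adjusted p = 0.015), in which 8.43% of probes were higher. With the mean of its probes Eef2 was at 0.16 (limma adjusted p = 0.086). Eef2k, the kinase that inhibits eEF2, was at -0.099 ± 0.070 and did not pass.

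**Figure D2:**
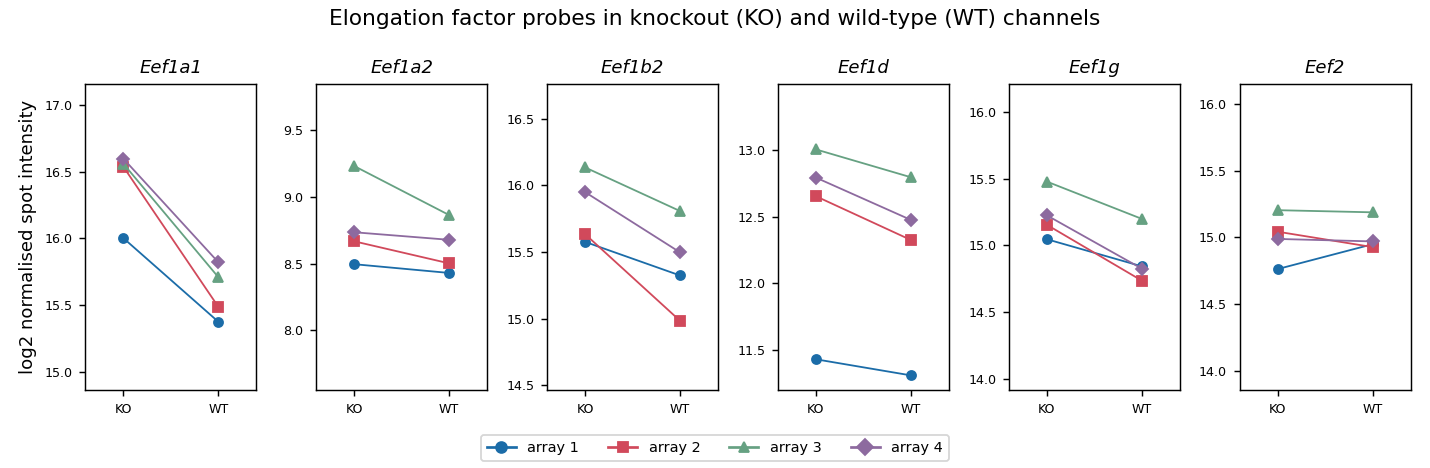
Normalised log2 intensity of the brightest probe of 6 elongation factor genes in knockout (KO, left) and wild-type (WT, right) channels, with a line joining the extracts of each array. For Eef1a1 the KO points run from 16.00 to 16.60 and the WT points from 15.37 to 15.82. For Eef2 the log2 ratios run from -0.19 to 0.12. The vertical axes have the same span but different levels, which are not comparable between probes. Intensities were normalised within arrays and not between them.

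Of 6 enzymes that modify the elongation factors, 1 passed the threshold as higher (16.7%, against 9.45% of all genes). This was Eef1akmt1, a lysine methyltransferase of eEF1A. It gave 0.14, 0.20, 0.32 and 0.25 (mean 0.23 ± 0.048, limma adjusted p = 0.022), but it did not pass without replicate 3 or 4 (limma adjusted p = 0.086 to 0.089).

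Among the 13 measured genes of eIF3, the large scaffold that holds the small subunit ready for initiation, 4 rose (30.8%, against 9.45% of all genes) and 0 fell. Of the 13, 11 lay above 0 (84.6%, against 54.6% of all genes), with a median of 0.15, against 0.013 for all genes. Eif3h gave 0.39, 0.65, 0.38 and 0.42 (mean 0.46 ± 0.058, limma adjusted p = 0.0041). Eif3f gave 0.21, 0.41, 0.31 and 0.41 (mean 0.33 ± 0.051, limma adjusted p = 0.0078). Both encode subunits with an MPN domain. Eif3e gave 0.27, 0.54, 0.24 and 0.25 (mean 0.33 ± 0.062, limma adjusted p = 0.015), and its other probe gave 0.26 ± 0.082. Eif3l gave 0.15, 0.55, 0.23 and 0.27 (mean 0.30 ± 0.070, limma adjusted p = 0.030), and it did not pass without replicate 3 or 4 (limma adjusted p = 0.060 to 0.078). Both encode subunits with a PCI domain. Array 2 gave the highest value of all 4 genes.

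The 4 genes that rose encode subunits that budding yeast lacks. Of 7 such subunits, 4 rose and all 7 lay above 0, when 9.45% of all genes were higher and 54.6% lay above 0. The medians of these 7 were 0.21, 0.52, 0.23 and 0.26 on arrays 1 to 4. Besides those above, Eif3m was at 0.29 ± 0.085 (n = 3 arrays, limma adjusted p = 0.069), Eif3d at 0.14 ± 0.044 and Eif3k at 0.13 ± 0.058. Of the 5 core subunits shared with yeast, 0 passed, and 4 had an unadjusted p under 0.05, as did 4777 of all 15524 genes. Eif3a was at -0.19 ± 0.065, Eif3b at 0.084 ± 0.057, Eif3c at 0.21 ± 0.062, Eif3g at 0.15 ± 0.045 and Eif3i at 0.13 ± 0.054. Their medians were 0.057, 0.060, 0.18 and 0.19 on arrays 1 to 4. This division was made after the values were seen, so the difference between the groups is a description. Eif3j1, a loosely bound subunit, was at -0.13 ± 0.062.

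Of 12 eIF4 genes, which act in mRNA recruitment, 1 rose (8.33%, against 9.45% of all genes). This was Eif4b, which stimulates the helicase eIF4A. It gave 0.15, 0.36, 0.34 and 0.32 (mean 0.29 ± 0.051, limma adjusted p = 0.012), with 0.35 and 0.22 on its other probes. It narrowly missed the threshold without replicate 4 (limma adjusted p = 0.051). Eif4h, a related cofactor, was at 0.15 ± 0.062. The helicase genes Eif4a1 and Eif4a2 were at 0.13 ± 0.044 and -0.034 ± 0.059, and Eif4a3, a component of the exon junction complex, at 0.16 ± 0.053.

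None of the genes of cap binding and scaffolding passed. Eif4e, the cap-binding protein, was at 0.014 ± 0.055 with a 95% interval of -0.11 to 0.14, and Eif4e2, its repressive relative, at -0.078 ± 0.054 (n = 3 arrays). The scaffold genes Eif4g1, Eif4g2 and Eif4g3 were at -0.012 ± 0.069, -0.059 ± 0.048 and 0.054 ± 0.052.

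Factors of initiator tRNA and its nucleotide cycle gave a mixed picture. The eIF2 subunit genes Eif2s1 (alpha, the target of the stress kinases) and Eif2s2 (beta) were at -0.098 ± 0.065 and -0.16 ± 0.082 (n = 3 arrays) and did not pass. Eif2a and Eif2d, which are not subunits of eIF2 and can bring tRNA to the ribosome by other routes, both rose. Eif2d gave 0.16, 0.36, 0.37 and 0.25 (mean 0.29 ± 0.052, limma adjusted p = 0.014), and its other probes gave 0.23 and 0.14. Eif2a gave 0.26, 0.46, 0.33 and 0.076 (mean 0.28 ± 0.065, limma adjusted p = 0.029). Without 1 replicate, Eif2d did not pass when replicate 3 was left out (limma adjusted p = 0.052), nor Eif2a when replicate 1, 2 or 3 was (limma adjusted p = 0.069 to 0.088).

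Of 4 measured subunits of eIF2B, the exchange factor that recharges eIF2, only Eif2b4 passed in this fit (25% higher, against 9.45% of all genes). It gave 0.093, 0.28, 0.28 and 0.18 (mean 0.21 ± 0.051, limma adjusted p = 0.034). Its other probe gave 0.0057 ± 0.065, and it did not pass without replicate 2, 3 or 4 (limma adjusted p = 0.081 to 0.123) or with the mean of both probes. Without replicate 1 the other probe was the brighter one and stood for the gene, at 0.064 (limma adjusted p = 0.583). Eif2b1 and Eif2b2 were at 0.073 ± 0.045 and -0.14 ± 0.053.

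The member that fell was Eif1a, which encodes eIF1A, a factor of scanning and start codon choice. It gave -0.31, -0.13, -0.48 and -0.41 on arrays 1 to 4 (mean -0.33 ± 0.064, limma adjusted p = 0.016) with loess normalization, and -0.21 ± 0.047 on its other probe. With median centring it was at 0.10 against 0, which lay at -0.15 once the all-gene median was taken off, and it did not pass without replicate 1, 3 or 4 (limma adjusted p = 0.052 to 0.062). Its X-linked relative Eif1ax gave 0.16, 0.41, 0.11 and 0.17 (mean 0.21 ± 0.059, limma adjusted p = 0.053). The log2 ratio of Eif1a lay below that of Eif1ax on every array, by -0.46, -0.54, -0.59 and -0.58 (exact two-sided permutation p = 0.125, the smallest possible). This relation within an array does not depend on where the arrays are centred. The pair was chosen because 1 of its genes had passed, and the permutation test could not reach the threshold, so it decides nothing.

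The other factors of start codon recognition and subunit joining did not pass on their brightest probes. Eif5, which triggers GTP hydrolysis by eIF2, was at -0.16 ± 0.049 (limma adjusted p = 0.065), and its second probe gave -0.25 ± 0.046, which passed as lower when every probe was tested (4.86% of probes were lower). Eif1 and Eif1b were at -0.100 ± 0.053 and 0.10 ± 0.045. Eif5b, the GTPase of subunit joining, was at 0.13 ± 0.048, but its 5 probes ranged from -0.42 to 0.23, and the one at -0.42 passed as lower in the fit of all probes (limma adjusted p = 0.016). Eif6, which keeps the large subunit apart, was at -0.15 ± 0.046 (limma adjusted p = 0.072), with 0.12 on a dimmer probe. Eif5a, the factor that carries hypusine and eases elongation at difficult sequences, was at 0.016 ± 0.045, and Eif5a2 at 0.058 ± 0.051. The 9 members not given singly lay between -0.031 and 0.11, none past the threshold (lowest limma adjusted p = 0.222).

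**Figure D3:**
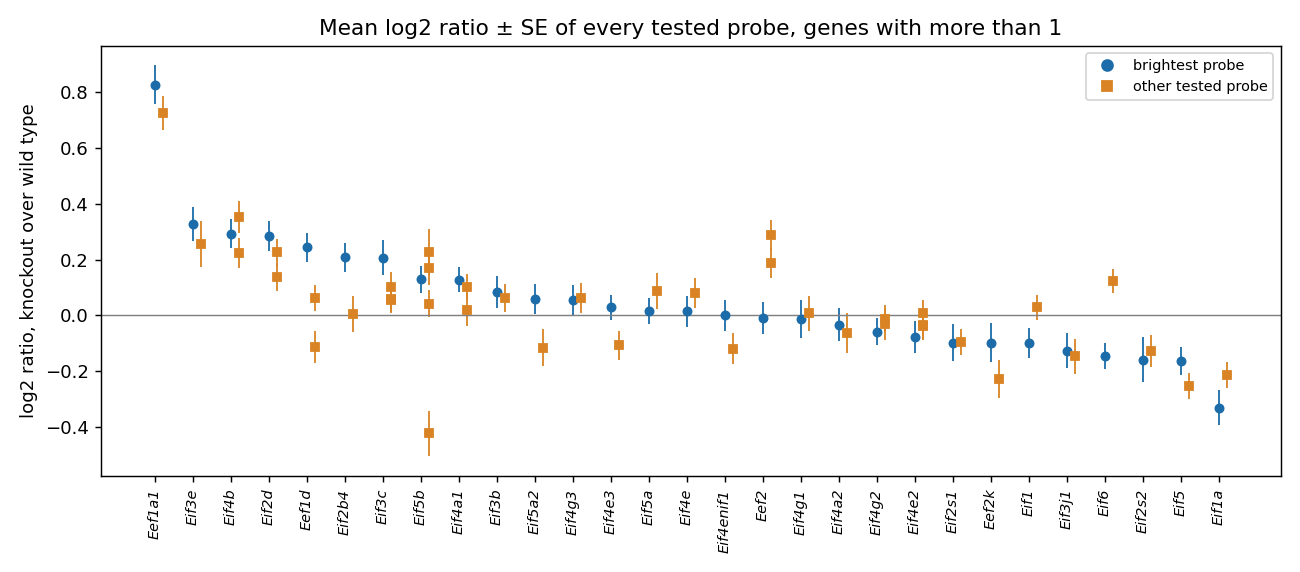
Mean log2 ratio of knockout over wild type with its SE for every tested probe of the 29 members with more than 1, blue circles for the brightest probe and orange squares for the others. The probes of Eef1a1 and Eif4b lie close together, whereas those of Eef2, Eif5b, Eef1d and Eif6 do not.

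For 19 of these 29 members all tested probes had 1 sign, and the other 27 members had 1 tested probe. Of the 13 genes that rose, 6 had more than 1 tested probe. All probes of Eef1a1, Eif3e, Eif4b and Eif2d lay above 0, the second of Eif2b4 was near 0, and Eef1d had a probe below 0. The dimmer probe of Eif3e and the dimmest of Eif2d did not pass when every probe was tested (limma adjusted p = 0.077 and 0.101).

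The size of the increases differed between arrays. Among the 13 genes that rose, array 2 gave the highest value for 10 and array 1 the lowest for 10. Their median was 0.20, 0.42, 0.32 and 0.32 on arrays 1 to 4.

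Related translation genes outside the symbol rule were read from a list of 34, of which 33 were tested. In knockout, 9 rose (27.3%, against 9.45% of all genes) and 1 fell, with a median of 0.092. Tpt1, a translationally controlled protein whose mRNA has the terminal tract, rose by 0.61 ± 0.059, and Rack1, a protein of the small ribosomal subunit, by 0.60 ± 0.061. Naca and Btf3, subunits of the nascent polypeptide-associated complex, rose by 0.53 ± 0.070 and 0.34 ± 0.048. Pabpc1, the poly(A)-binding protein that joins eIF4G, rose by 0.42 ± 0.055 (n = 3 arrays). Paip2 (0.23 ± 0.043), which restrains Pabpc1, the mitochondrial elongation factor Tsfm (0.22 ± 0.043) and Gfm2 (0.20 ± 0.054), a factor of mitochondrial ribosome recycling, were higher, as was Bzw2 (0.18 ± 0.045). Mcts2, a relative of a ribosome recycling factor, fell by 0.30 ± 0.061 with loess, and with median centring it was at 0.0064, or -0.25 relative to the all-gene median.

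Of 33 listed regulators of these factors 30 were tested, with 2 higher (6.67%, against 9.45% of all genes), 5 lower and a median of 0.0053. Of all genes 5.11% were lower. With median centring all genes had a median of 0.26, so values with it are also given relative to that median. Eif2ak3, the eIF2 kinase of the endoplasmic reticulum (PERK), gave -0.44, -0.66, -0.35 and -0.66 on arrays 1 to 4 (mean -0.53 ± 0.065, limma adjusted p = 0.0038), whereas median centring gave -0.077, which is -0.33 relative to the all-gene median. Ppp1r15b, a phosphatase subunit that reverses eIF2 phosphorylation, was lower at -0.38 ± 0.085, and with median centring at -0.053, or -0.31 relative to the all-gene median. Eif2ak4, the kinase that senses amino acid shortage (GCN2), rose by 0.29 ± 0.055. Impact, an inhibitor of that kinase, fell by 0.19 ± 0.046 with loess, whereas median centring gave 0.20, or -0.051 relative to the all-gene median.

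The regulator list also holds genes of the mTOR pathway. Eif4ebp1, the repressor of eIF4E, was at -0.24 ± 0.053 with loess and at 0.15 with median centring. Sesn1, an inhibitor of mTOR complex 1, was at -0.30 ± 0.045 with loess and at 0.11 with median centring. Both passed as lower with loess, and both lay below the all-gene median with median centring, at -0.11 and -0.15 relative to it. Rptor, a subunit of that complex, rose by 0.23 ± 0.043 with loess, but was at -0.053 relative to the all-gene median with median centring. Mtor itself was at -0.090 ± 0.087 and did not pass. Nor did Ddit4, another inhibitor of mTOR complex 1, which gave -0.79, 0.047, -0.76 and -0.0051 on arrays 1 to 4 (mean -0.38 ± 0.150, limma adjusted p = 0.136).

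The counts depended on the normalization. With each array centred on its median in place of loess, 52 members were higher and 1 lower (Eif1ad, -0.18, named after its value was seen), when 61.0% of all genes were higher, 15.8% were lower and their median was 0.26. Relative to that median, the 13 genes that rose lay between 0.23 and 1.18, and 49 of 56 members were above it. With loess, 38 of 56 lay above the all-gene median. Loess follows spot brightness, whereas median centring moves all spots of an array alike. From loess to median centring, the bright Eef1a1 (mean log2 intensity 16.0) went from 0.83 to 1.44 and the dim Eif1ad (7.35) from 0.018 to -0.18. Taking off 1 median does not remove such differences, and their part in these counts was not tested. With single channels and no pairing of the extracts on an array, 0 members passed in limma (2 had an unadjusted p under 0.05), and 3 of all genes did, all lower (0.0193%). That fit had no normalization between arrays, so brightness differences between arrays entered its error.

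**Figure D4:**
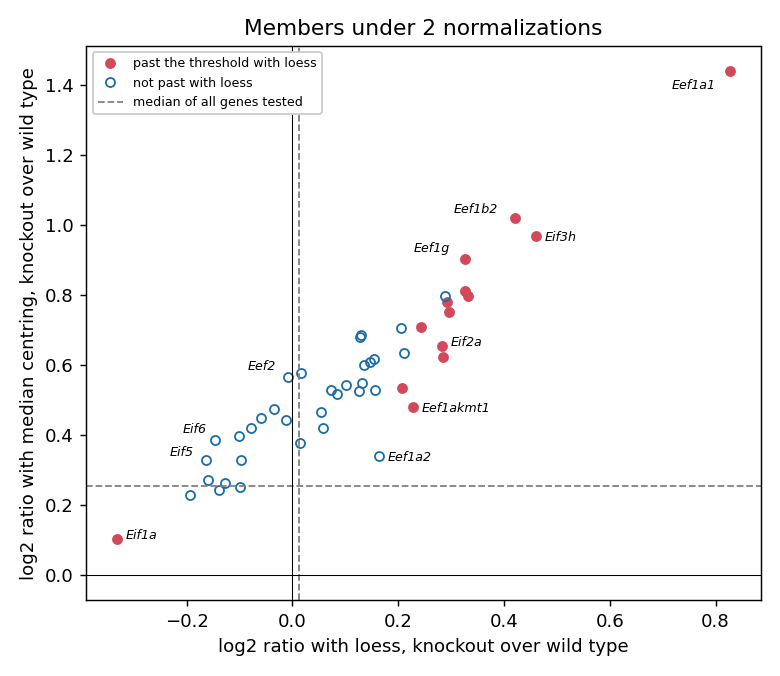
Log2 ratio of knockout over wild type with loess (horizontal) and with median centring (vertical) for the 47 members given singly, filled where past the threshold with loess. Dashed lines mark the median of all genes tested, 0.013 with loess and 0.26 with median centring. All 13 genes that rose with loess lie above both dashed lines, and Eif1a lies below both, though above 0 with median centring.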

How the data were processed

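Per the file headers, the authors deposited 1 Agilent file per array with median red and green spot signals and local backgrounds as linear intensity, processed signals, a log10 ratio of red over green, and flags. The submitters' processing notes name Agilent Feature Extraction 10.5.1.1. The labels give red to knockout on every array and call the arrays biological replicates. Whether extracts share a litter is not stated, and p-values measure the spread between these arrays, which lay on 1 slide and were scanned as 1 set.

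Median signals were background-corrected (normexp, offset 50) and loess-normalised within arrays in limma 3.58.1 under R 4.3.3, with control and non-uniform spots at weight 0. Probes were named through RefSeq accessions in a GRCm38.p6 table (25097 of 41174), tested if well above background in 1 channel on at least 3 arrays with values on at least 3, and the brightest probe stood for a gene. Log2 ratios were fitted against 0 with lmFit and eBayes, adjusted by Benjamini-Hochberg over 15524 genes, threshold 0.05, two-sided; values are mean ± SE. The number of arrays limits the precision. In simulated data of this size, 73.0% of changes of 0.3 and 99.0% of changes of 0.6 on the log2 scale were recovered, and 17 unchanged genes were called. The simulation drew independent normal noise from the fitted SE, without effects of dye, brightness or sex. It therefore does not measure recovery or error in these arrays.

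The members, lists and tests were chosen with earlier results of these data known. Every member past the threshold is given with its values by array, as are Eef1a2 and Eif1ax, which have a relative past it, and of the lists the genes past it, with Mtor and Ddit4 added after their values were seen. Alternatives were other background corrections, normalizations, filters and probe rules, single channels, eBayes settings, array weights and leaving out each replicate.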

Additional observations from a re-analysis of the deposited data

Results flagged for a closer look

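On 6 of the 52 members with values on 4 arrays, 1 array stood apart from the other 3, by a criterion under which chance alone marks about 1 in 20 groups. The share of all genes so marked is not given here, so this count shows nothing particular to these members. Eif3e was at 0.54 on array 2, against 0.24 to 0.27 on the others. Eif3h was at 0.65 on array 2, against 0.38 to 0.42. Eif4a2 was at 0.16 on array 2, against -0.12 to -0.090. Eif3k was at -0.06 on array 1, against 0.18 to 0.20, and Eif4g1 at -0.27 on array 1, against 0.058 to 0.10. Eif5a2 was at -0.08 on array 4, against 0.088 to 0.12. Without replicate 2, Eif3e and Eif3h remained past the threshold.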

How the results depend on the processing

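Eef1a1, Eef1b2, Eef1g, Eif3e, Eif3f and Eif3h kept their direction and their side of the threshold under every alternative except single channels. Leaving out 1 replicate left 7 to 11 members higher (7 without replicate 3, 8 without replicate 4) and 0 to 2 lower, and the median of the members ranged from 0.080 to 0.10, while 4.28% to 6.60% of all genes were higher and 2.36% to 4.18% lower. Single channels with no replicate block, not normalised between arrays, gave 0 higher and 0 lower in limma. In that fit 2 members had an unadjusted p under 0.05, against 29 of 56 in the paired fit, where 4777 of all 15524 genes did. The labels give both extracts of an array 1 number, and the array pairs them by design. Genes lower numbered 2 with processed signals, 2 with the mean of a gene's probes, 2 with array weights, 3 with every probe on its own and 3 with eBayes trend and robust, and the median over probes was 0.060. Eef1akmt1 and Eif2a did not pass with processed signals or the authors' log ratio, nor Eef1d and Eif2b4 with the mean of their probes.

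With median centring 52 members were higher with a median of 0.50, or 0.24 above the all-gene median, and 79.4% of called genes were higher against 64.9% with loess. Among the 47 members given singly, values that changed sign there, against 0, were Eef2 0.57, Eef2k 0.25, Eif1 0.40, Eif1a 0.10, Eif2b2 0.24, Eif2s1 0.33, Eif2s2 0.27, Eif3a 0.23, Eif3j1 0.26, Eif4a2 0.47, Eif4e2 0.42, Eif4g1 0.44, Eif4g2 0.45, Eif5 0.33 and Eif6 0.39. Of these, Eef2k, Eif1a, Eif2b2 and Eif3a stayed below the median of all genes. Eif1ad, not among the 47, went from 0.018 with loess to -0.18 with median centring. Elsewhere values near 0 changed sign. Eif4e was at -0.027 with processed signals, -0.021 with the log ratio and -0.017 with array weights, and -0.018 to 0.057 without 1 replicate. Eef2 was at 0.16 with the mean of its probes and -0.051 to 0.050 without 1 replicate. Eif4g1 was at 0.0034 with array weights and -0.050 to 0.075 without 1 replicate, Eif5a2 at -0.029 with the mean of its probes, and Eif5a at -0.0017 to 0.037 without 1 replicate. The cause of these changes was not tested.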
